A study of Mus musculus with 18 samples.

Results

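The genes described here are the platelet-derived growth factors (PDGF) Pdgfa, Pdgfb, Pdgfc and Pdgfd, the PDGF receptors Pdgfra and Pdgfrb, and the vascular endothelial growth factors (VEGF) Vegfa, Vegfb and Vegfc. They were taken by gene symbol from a table of 55486 mouse genes, and all 9 were among the 14273 genes with enough counts to be tested. The cells were normal fibroblasts (NFs) of the mammary gland of adult female FVB/n mice, sorted on the surface peptidase CD26 into CD26- and CD26+ NFs. Cultures lasted 7 days, in control conditioned medium or with conditioned medium (CM) of WEPtn tumour cell lines, which come from a mouse model of invasive lobular carcinoma in which WapCre recombines its target genes, Cdh1 among them, in mammary epithelium. The 18 libraries were CD26- NFs in control medium (n = 3, replicates 1 to 3), CD26- NFs in tumour CM (n = 6, replicates 4 to 9), CD26+ NFs in control medium (n = 3, replicates 10 to 12) and, as the fourth group, CD26+ NFs in tumour CM (n = 6, replicates 13 to 18). Each of the 6 tumour lines, 13-MCB-17, 10-SJK-221, 18-MCB-12, 13-MCB-44, 13-MCB-90 and 13-MCB-138, supplied the CM for 1 CD26- and 1 CD26+ culture. All groups shared the strain, the sort that removed epithelial, endothelial and blood cells, and the culture. Mice were pooled for sorting, and the labels do not say which cultures came from separate animals, so p-values measure the spread between these cultures.

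PDGFs are secreted dimers that drive the division and migration of fibroblasts and of the mural cells that wrap vessels. PDGF-A, PDGF-C and PDGF-B bind the receptor encoded by Pdgfra, and PDGF-B and PDGF-D bind the receptor encoded by Pdgfrb. PDGF-C and PDGF-D are secreted in a latent form that proteases open. VEGF-A acts on blood vessel endothelium through Kdr and Flt1, VEGF-B on Flt1, and VEGF-C on lymphatic endothelium through Flt4. Fibroblasts are a known source of VEGF-A, and its gene is a classical target of the hypoxia-inducible factors.

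Total counts per library ran from 9725723 to 14585349. Among the 8 fibroblast markers, all were above 3 counts in every library, and their summed level was 26030 CPM in CD26- control, 20810 CPM in CD26- CM, 85700 CPM in CD26+ control and 48430 CPM in CD26+ CM libraries (group means). CPM are counts relative to library size after TMM scaling. Epithelial markers were present in every library although the sort had removed EpCAM+ cells. Of the 13 epithelial markers, 12 were above 3 counts throughout, and their summed level averaged 5222 CPM (range 4861 to 5477) in CD26- control, 4215 CPM (3296 to 5325) in CD26- CM, 1114 CPM (771.5 to 1433) in CD26+ control and 1106 CPM (735.9 to 1781) in CD26+ CM libraries. The 8 mural cell markers summed to 207 CPM in CD26- control, 143 CPM in CD26- CM, 77.8 CPM in CD26+ control and 82.9 CPM in CD26+ CM libraries, with Kcnj8 at no more than 5 counts in any library. The 8 endothelial markers summed to at most 11.8 CPM and the 10 immune markers to at most 55.0 CPM in any library. Ptprc, which encodes the pan-leukocyte protein CD45, stayed at 3 counts or fewer. Dpp4, which encodes CD26, had at most 2 counts in every control library of either sort, 1 to 11 in CD26- CM and 8 to 104 in CD26+ CM libraries, so it does not separate the control cultures by their labels. In these bulk cultures, fewer cells of a type and less RNA per cell cannot be told apart.

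The sequences just upstream of the start of 4 genes are shown as examples of genes that passed a test with tumour CM. Pdgfra and Pdgfc passed in both cell types, Vegfb passed in CD26- NFs, and Vegfa had the largest increase of the 9 genes in CD26+ NFs. They are the 250 bases before the RefSeq start (GRCm38.p6), read along the gene. Pdgfra lies at chr5:75152001-75152250 (+ strand), Pdgfc at chr3:81036166-81036415 (+ strand), Vegfa at chr17:46032378-46032627 (- strand) and Vegfb at chr19:6987652-6987901 (- strand). Capitals mark matches to 4 motifs searched on both strands. These were the hypoxia response cores ACGTG and GCGTG, AP-1 (TGANTCA) and the CArG box of serum response elements.
Pdgfra: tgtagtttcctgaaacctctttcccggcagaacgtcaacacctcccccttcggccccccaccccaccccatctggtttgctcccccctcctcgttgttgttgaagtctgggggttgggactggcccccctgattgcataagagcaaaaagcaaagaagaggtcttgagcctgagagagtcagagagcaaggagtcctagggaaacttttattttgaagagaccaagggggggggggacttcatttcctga
Pdgfc: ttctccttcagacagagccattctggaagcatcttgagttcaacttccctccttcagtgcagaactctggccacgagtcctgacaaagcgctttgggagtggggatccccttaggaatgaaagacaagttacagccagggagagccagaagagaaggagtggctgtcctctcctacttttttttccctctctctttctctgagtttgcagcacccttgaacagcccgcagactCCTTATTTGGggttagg
Vegfa: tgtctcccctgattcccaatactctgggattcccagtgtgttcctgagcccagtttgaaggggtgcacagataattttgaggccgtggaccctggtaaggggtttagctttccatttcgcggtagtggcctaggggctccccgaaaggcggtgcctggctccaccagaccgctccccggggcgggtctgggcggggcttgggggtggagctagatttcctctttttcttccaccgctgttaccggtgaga
Vegfb: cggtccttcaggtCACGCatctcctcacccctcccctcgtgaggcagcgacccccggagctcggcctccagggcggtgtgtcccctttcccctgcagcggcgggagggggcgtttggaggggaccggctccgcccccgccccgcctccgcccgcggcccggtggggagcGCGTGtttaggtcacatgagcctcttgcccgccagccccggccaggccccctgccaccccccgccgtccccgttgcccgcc
The Pdgfc window held a CArG box that began 17 bases before the start, a motif found in 1.47% of 32851 windows of the same length. In the Vegfb window the core GCGTG occurred 2 times, beginning 237 (reverse strand) and 81 bases before the start, and 28.2% of windows held it at least once. No searched letters were found in the printed Pdgfra and Vegfa windows, where ACGTG occurred in 16.6% and AP-1 in 6.75% of all windows. RefSeq gives Vegfa a second start inside the gene, 7206 bases from the start of the gene. The 250 bases before it (chr17:46025164-46025413, not printed) held ACGTG and GCGTG, both once, beginning 211 (reverse strand) and 218 bases before that start. These bases lie within the span of Vegfa and not upstream of the gene. A match is a description of the letters and not a measured binding site. RefSeq entries were used for 7 of the 9 genes, without Pdgfb and Pdgfrb.

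The 9 genes lie on 8 chromosomes in GRCm38, with the spans as the table gives them. Pdgfra (ENSMUSG00000029231) spans chr5:75152292-75198215 and Pdgfrb (ENSMUSG00000024620) chr18:61045150-61085061. The PDGF ligand genes are Pdgfa (ENSMUSG00000025856, chr5:138976014-138997370), Pdgfb (ENSMUSG00000000489, chr15:79995874-80014977), Pdgfc (ENSMUSG00000028019, chr3:81036416-81214040) and Pdgfd (ENSMUSG00000032006, chr9:6168584-6378850). The VEGF genes are Vegfa (ENSMUSG00000023951, chr17:46016993-46032369), Vegfb (ENSMUSG00000024962, chr19:6982473-6987651) and Vegfc (ENSMUSG00000031520, chr8:54077606-54187096). Counts cover the annotated exons of each gene, so isoforms are not separated.

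The first question was which of the receptor and ligand genes responded to tumour CM in each cell type. In CD26- NFs, 2 of the 9 genes rose (Pdgfra and Vegfb) and 1 fell (Pdgfc) at a false discovery rate (FDR) under 0.05 by the edgeR quasi-likelihood test, against 7.88% of all tested genes higher and 7.28% lower. In CD26+ NFs, 4 genes rose (Vegfa, Pdgfra, Vegfc and Pdgfa) and 1 fell (Pdgfc), against 15.2% higher and 13.4% lower among all tested genes. The median log2 fold change of the 9 genes was 0.13 in CD26- NFs and 0.22 in CD26+ NFs, where the medians of all genes were 0.00 (0.005 and -0.004). The 2 CM comparisons use separate control cultures, while each comparison between cell types shares its libraries with the CM comparisons.

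**Figure D1:**
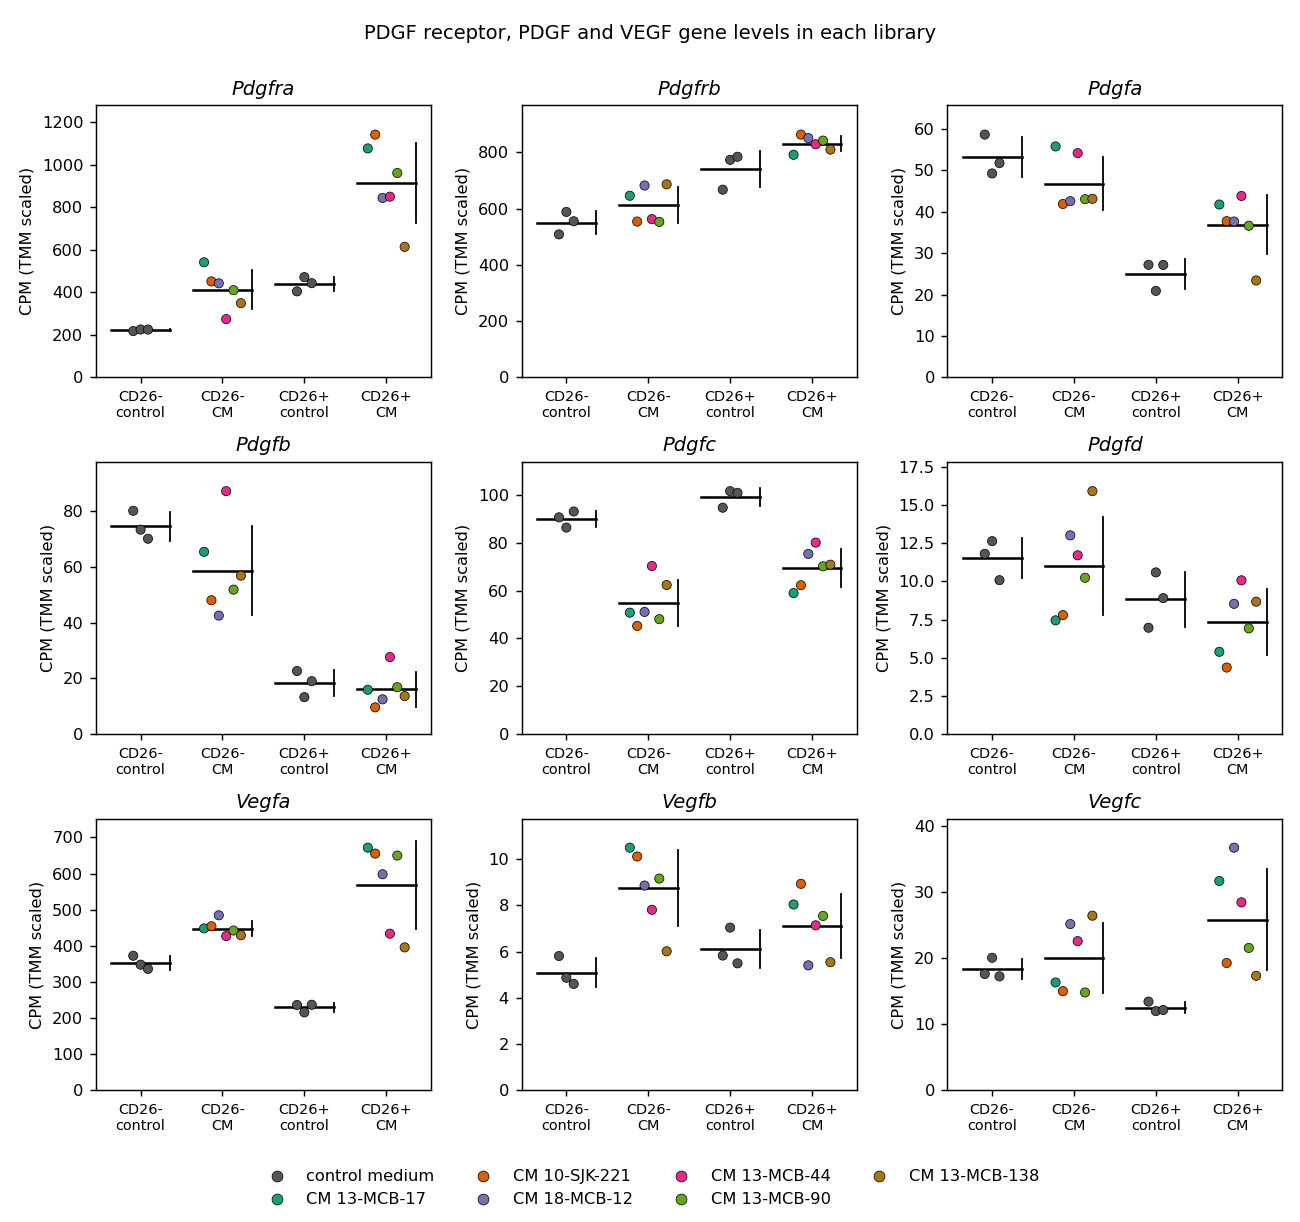
Expression of the 9 genes in each library, as CPM after TMM scaling (y axis, linear from 0), in the 4 groups (x axis). Points are libraries, coloured by the tumour line that gave the CM, with horizontal lines for group means and vertical lines for the SD. Pdgfra in CD26+ CM libraries, from 613 to 1141 CPM, was above every other library, and Pdgfb was below 30 CPM in all CD26+ libraries.

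Pdgfra, the receptor for PDGF-A and PDGF-C that marks many fibroblasts, rose with tumour CM in both cell types and was higher in CD26+ NFs in both media. In CD26- NFs it measured 217, 225 and 225 CPM in the control libraries. In tumour CM it ran from 274 CPM over a median of 426 to 541 CPM, so every CM library was above every control library. The increase was 1.85-fold (log2 fold change 0.89 ± 0.18 SE, edgeR FDR = 0.00460). In CD26+ NFs the control libraries measured 404, 471 and 442.5 CPM, and the CM libraries ran from 613 over a median of 905 to 1141 CPM. This was an increase of 2.08-fold (log2 1.06 ± 0.19 SE, FDR = 0.000453), again without overlap. The response did not differ detectably between the cell types (difference 0.17 ± 0.25 SE on the log2 scale, FDR = 0.72), an error that leaves room for a difference in either direction.

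Between the cell types, Pdgfra was 1.98-fold higher in CD26+ NFs in control medium (log2 0.98 ± 0.21 SE, edgeR FDR = 0.000728) and 2.22-fold higher in tumour CM (1.15 ± 0.15 SE, FDR = 2.93e-06). CD26+ cultures without tumour CM had a mean of 439 CPM and CD26- cultures with it a mean of 411 CPM, within the spread of the CM libraries. Of the 8 fibroblast markers, 7 were higher in CD26+ NFs in control medium and 6 in tumour CM, and 0 were lower in either with edgeR, where 7 and 6 had an unadjusted p under 0.05. Among all tested genes, 25.0% were higher and 25.4% lower in control medium, and 29.3% in each direction in tumour CM. Tumour CM raised 3 of the 8 markers and lowered 1 in CD26- cultures, where 7.88% of all genes were higher and 7.28% lower. It raised 2 and lowered 5 in CD26+ cultures, where 15.2% were higher and 13.4% lower. The part of the fibroblast markers in the differences of Pdgfra was not tested. Exons of Pdgfra share 456 and 166 bases with the antisense annotations Gm42802 and Gm42803, and the strand setting of the counting was not given in the sources used here.

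Pdgfrb, the receptor for PDGF-B and PDGF-D and the classical receptor of pericytes, differed between the cell types and moved little with CM. The CD26- control libraries measured 508, 588 and 555 CPM, and the CD26- CM libraries ran from 552.5 over a median of 604 to 686 CPM. In CD26+ NFs the control libraries measured 667, 773 and 784 CPM, and the CM libraries ran from 791 over 835 to 863 CPM. The CM libraries overlapped the controls in CD26- NFs and lay just above them in CD26+ NFs. Its log2 fold change with CM was 0.16 in both cell types (SE 0.08 in each, FDR = 0.19 in CD26- and 0.13 in CD26+ NFs), and the difference between these responses was 0.01 ± 0.11 SE. In CD26+ against CD26- NFs it was 1.35-fold higher in control medium (log2 0.43 ± 0.09 SE, edgeR FDR = 0.000786) and 1.35-fold higher in tumour CM (0.44 ± 0.07 SE, FDR = 1.64e-05). Of the 7 mural cell markers tested, the CD26+ level in control medium was lower for 4 and higher for 1, and that in tumour CM was lower for 3 and higher for 1. Among all tested genes, 25.4% were lower and 25.0% higher in control medium, and 29.3% in each direction in tumour CM. The part of the mural cell markers in the difference of Pdgfrb was not tested.

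The count of Pdgfra relative to Pdgfrb in the same library is given as a description, without a test. This ratio is not corrected for gene length, so only its change between groups is read. It was 0.405 ± 0.0227 (SD, n = 3) in CD26- control, 0.673 ± 0.151 (n = 6) in CD26- CM, 0.593 ± 0.0248 (n = 3) in CD26+ control and 1.10 ± 0.225 (n = 6) in CD26+ CM libraries. Among CM libraries, it ran from 0.486 (line 13-MCB-44) to 0.838 (13-MCB-17) in CD26- NFs and from 0.757 (13-MCB-138) to 1.36 (13-MCB-17) in CD26+ NFs.

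**Figure D2:**
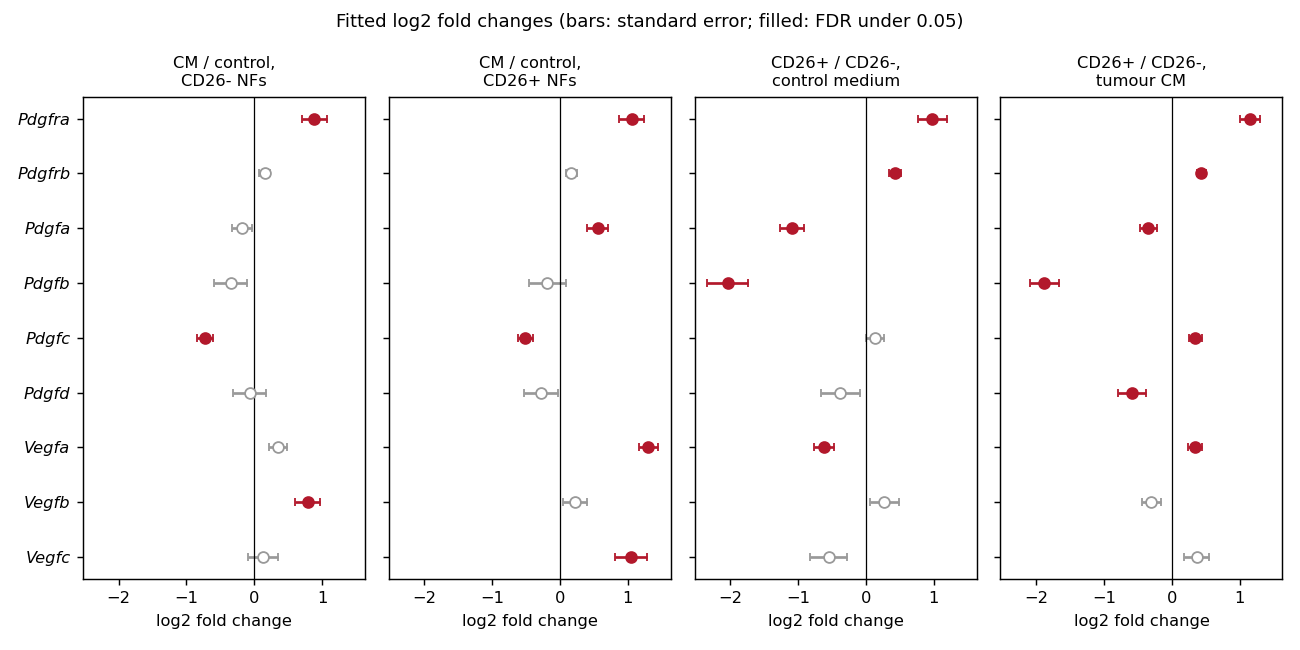
Log2 fold changes (x axis) of the 9 genes (rows) fitted by edgeR in 4 comparisons, with standard errors as bars and filled red symbols for an FDR under 0.05. Pdgfra lies to the right of 0 in all 4 panels, Pdgfc to the left in both CM comparisons, and Pdgfb near -2 in both comparisons of the cell types.

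Of the 4 PDGF ligand genes, only Pdgfc passed the test as lower with CM in both cell types. In CD26- NFs its control libraries measured 90.8, 86.5 and 93.3 CPM, and the CM libraries ran from 45.3 over 51.0 to 70.4 CPM. It dropped to 0.606 of the control level (log2 fold change -0.72 ± 0.11 SE, edgeR FDR = 0.000689). In CD26+ NFs the control libraries measured 94.9, 101.8 and 101.1 CPM and the CM libraries 59.1 to 80.2 CPM, with a median of 70.6. The CD26+ level dropped to 0.702 of control (-0.51 ± 0.11 SE, FDR = 0.00295), and no CM library overlapped a control library in either cell type. The 2 decreases were not distinguishable (difference 0.21 ± 0.16 SE, FDR = 0.46). In tumour CM Pdgfc was 1.27-fold higher in CD26+ NFs (log2 0.35 ± 0.10 SE, FDR = 0.00452), and in control medium the log2 difference was 0.14 ± 0.13 SE (FDR = 0.41, or 0.0378 in a fit of these 2 groups alone), with all CD26+ above all CD26- libraries. Exons of Pdgfc share 147 bases with the antisense annotation Gm16000.

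Pdgfa, the ligand specific to the alpha receptor, was lower in CD26+ NFs in both media. The CD26- control libraries measured 58.7, 49.3 and 51.8 CPM and the CD26- CM libraries 41.9 to 55.8 CPM, with a median of 43.1, so these groups overlapped (log2 fold change -0.19 ± 0.15 SE, edgeR FDR = 0.43). The CD26+ control libraries measured 27.2, 20.9 and 27.2 CPM, and the CM libraries ran from 23.4 over 37.7 to 43.8 CPM. Only the culture with CM of 13-MCB-138 (replicate 18) lay within the control range, and the increase of 1.47-fold (0.56 ± 0.16 SE) had an FDR of 0.0131. Without control replicate 11, the lowest of the 3, it was 0.43 with an FDR of 0.105. CD26+ NFs had 0.471 of the CD26- level in control medium (-1.09 ± 0.18 SE, FDR = 6.47e-05) and 0.789 of it in tumour CM (-0.34 ± 0.12 SE, FDR = 0.0234). The second of these did not pass without CM replicate 4 or 7 (FDR up to 0.0605). Exons of Pdgfa share 813 bases with the antisense annotation 6330403L08Rik.

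Pdgfb, a ligand of both receptors, showed the largest difference between the cell types of the 9 genes. The CD26- control libraries measured 80.2, 73.4 and 70.1 CPM and the CD26+ control libraries 22.6, 13.2 and 18.9 CPM. In tumour CM the range was 42.5 to 87.2 CPM (median 54.3) in CD26- NFs and 9.53 to 27.6 CPM (median 14.7) in CD26+ NFs. No CD26+ library reached a CD26- library. It was 4.09-fold lower in CD26+ NFs in control medium (log2 -2.03 ± 0.30 SE, edgeR FDR = 2.48e-05) and 3.67-fold lower in tumour CM (-1.88 ± 0.22 SE, FDR = 9.64e-07). Its log2 fold change with CM was -0.35 ± 0.24 SE (FDR = 0.36) in CD26- NFs and -0.19 ± 0.27 SE (FDR = 0.65) in CD26+ NFs.

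Epithelial markers moved with Pdgfb. Of the 12 epithelial markers tested, 10 were lower in CD26+ NFs in both media, against 25.4% of all genes in control medium and 29.3% in tumour CM. The median log2 fold change of the 12 markers was -2.06 in control medium and -1.97 in tumour CM. For every 1000 CPM of summed epithelial markers, Pdgfb measured 14.3 ± 0.451 CPM (SD, n = 3) in CD26- control, 13.8 ± 2.28 (n = 6) in CD26- CM, 16.5 ± 0.675 (n = 3) in CD26+ control and 14.4 ± 1.81 (n = 6) in CD26+ CM libraries. Across all 18 libraries this ratio stayed between 11.6 and 17.1, while Pdgfb itself ran from 9.53 to 87.2 CPM. Krt18, a keratin of luminal epithelium, averaged 1534 CPM in CD26- control and 279 CPM in CD26+ control libraries, and Epcam averaged 231 and 58.4 CPM. The part of epithelial RNA in the differences of Pdgfb and Pdgfa between the cell types was not tested.

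**Figure D3:**
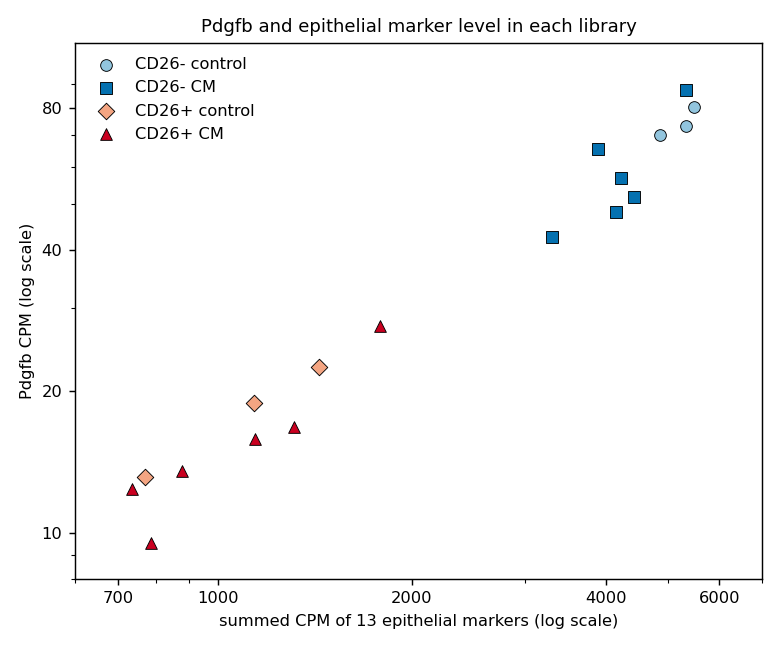
Pdgfb (y axis, CPM, log scale) against the summed CPM of 13 epithelial markers (x axis, log scale), 1 point per library, with the group given by colour and shape. The 9 CD26- libraries lie at 3296 CPM of markers or more and the 9 CD26+ libraries at 1781 or less, and both sets follow a ratio of 11.6 to 17.1 CPM of Pdgfb per 1000 CPM of markers.

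Pdgfd, a ligand of the beta receptor, was the lowest of the PDGF ligands. The CD26- control libraries measured 11.8, 12.6 and 10.1 CPM, and the CD26- CM libraries ran from 7.45 over 11.0 to 15.9 CPM. The CD26+ control libraries measured 6.96, 10.6 and 8.90 CPM, and the CD26+ CM libraries ran from 4.35 over 7.72 to 10.1 CPM. The CM libraries overlapped the controls in both cell types, and the cell types overlapped in each medium. The difference between the cell types in tumour CM, 1.51-fold lower in CD26+ NFs (log2 -0.59 ± 0.21 SE, edgeR FDR = 0.0203), passed the test, but not without CD26- CM replicate 9 (FDR = 0.0576). The log2 fold changes with CM were -0.06 ± 0.24 SE in CD26- and -0.28 ± 0.25 SE in CD26+ NFs, and neither passed.

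Vegfa, the main endothelial growth factor, responded to tumour CM differently in the 2 cell types. In CD26- NFs the control libraries measured 373, 348 and 336 CPM and the CM libraries 427 to 484.5 CPM, with a median of 445. All CM libraries lay above the controls, but the log2 fold change of 0.35 ± 0.13 SE did not pass (edgeR FDR = 0.0890). It passed when CD26+ CM replicate 18 was left out of the shared estimate of the spread (FDR = 0.0240) and in a fit of the CD26- libraries alone (FDR = 0.00375). In CD26+ NFs the control libraries measured 236, 216 and 237 CPM, and the CM libraries ran from 396 over 624 to 672 CPM. This 2.47-fold increase (log2 1.30 ± 0.14 SE, FDR = 4.64e-06) was the largest CM response of the 9 genes. The responses differed by 0.96 ± 0.19 SE on the log2 scale (FDR = 0.00656).

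The order of the cell types was thereby opposite in the 2 media. In control medium Vegfa was 1.53-fold lower in CD26+ than in CD26- NFs (log2 -0.62 ± 0.15 SE, edgeR FDR = 0.00273), and in tumour CM it was 1.27-fold higher (0.34 ± 0.11 SE, FDR = 0.0112). In tumour CM the groups overlapped: the cultures with CM of 13-MCB-44 (434 CPM) and 13-MCB-138 (396 CPM) lay below the other 4 CD26+ CM libraries, which measured 598 to 672 CPM. Summed epithelial markers averaged 5222 CPM in CD26- and 1114 CPM in CD26+ control libraries, and 4215 and 1106 CPM with tumour CM. The part of epithelial RNA in the differences of Vegfa was not tested.

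Vegfc, the lymphatic growth factor, rose with CM in CD26+ NFs. Its control libraries measured 13.4, 12.0 and 12.2 CPM there, and the CM libraries ran from 17.3 over 25.0 to 36.7 CPM without overlap. The increase was 2.06-fold (log2 1.05 ± 0.24 SE, edgeR FDR = 0.00336). In CD26- NFs the control libraries measured 17.6, 20.1 and 17.3 CPM and lay within the CM range of 14.8 to 26.4 CPM (0.13 ± 0.23 SE, FDR = 0.75). The responses differed by 0.92 ± 0.33 SE, with an FDR of 0.0879, and of 0.0210 when the tumour line was used as a block. Between the cell types the log2 difference was -0.55 ± 0.27 SE in control medium (FDR = 0.10, or 0.000501 in a fit of these 2 groups alone) and 0.37 ± 0.18 SE in tumour CM (FDR = 0.0905, or 0.0283 with the block).

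Vegfb, the VEGF that acts through Flt1, had the lowest mean CPM of the 9 genes in each group, with 57 to 144 counts per library. In some libraries Pdgfd had fewer counts than Vegfb, as in replicate 14 (58 against 119). In CD26- NFs the control libraries measured 5.81, 4.87 and 4.60 CPM of Vegfb, and the CM libraries ran from 6.01 over 9.00 to 10.5 CPM. This increase of 1.73-fold (log2 0.79 ± 0.18 SE, edgeR FDR = 0.00870) had an FDR of 0.0661 without control replicate 3. In CD26+ NFs the control libraries measured 5.83, 7.04 and 5.49 CPM and the CM libraries 5.40 to 8.93 CPM, with overlap (0.22 ± 0.18 SE, FDR = 0.40). The responses differed by -0.57 ± 0.26 SE, with an FDR of 0.17, and of 0.0387 with the tumour line as a block. The block also placed Vegfb lower in CD26+ NFs in tumour CM (-0.30 in both fits, FDR = 0.0790 without and 0.0142 with it).

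In the test of the difference between the CM responses, 2 of the 9 genes passed, both with the larger response in CD26+ NFs, against 4.53% of all genes with a positive and 3.01% with a negative difference. These were Vegfa and Pdgfa. For Pdgfa the difference was 0.74 ± 0.21 SE (edgeR FDR = 0.0433), and it did not pass in 15 of the 18 fits that left out 1 library each. With the tumour line as a block, 4 of the 9 genes passed, in a fit where 2516 of all 14273 genes passed, against 1075 without the block. Between the cell types in control medium, 2 genes were higher in CD26+ NFs (Pdgfra and Pdgfrb) and 3 lower (Pdgfa, Pdgfb and Vegfa), against 25.0% of all genes higher and 25.4% lower. In tumour CM, 4 were higher (Pdgfra, Pdgfrb, Pdgfc and Vegfa) and 3 lower (Pdgfa, Pdgfb and Pdgfd), against 29.3% in each direction.

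The next comparison was between tumour lines. Pdgfra, Pdgfrb and Pdgfc were higher in CD26+ than in CD26- NFs with the CM of each of the 6 lines, and Pdgfa, Pdgfb, Pdgfd and Vegfb were lower with each of the 6. The share of all genes with 1 direction in all 6 lines is not given here. Between the cell types in tumour CM, 29.3% of all genes passed in each direction. Vegfb did not pass there without the tumour line as a block (edgeR FDR = 0.0790). For Vegfa and Vegfc the CD26+ culture was higher with 5 of 6 lines. The exception for both was 13-MCB-138, where Vegfa measured 396 CPM in CD26+ and 429 CPM in CD26- NFs, and Vegfc 17.3 and 26.4 CPM. An effect of the line across both cell types was found for 2 genes, Pdgfb (edgeR FDR = 0.0161) and Pdgfd (FDR = 0.0278), against 6.56% of 13344 genes tested in the 12 CM libraries.

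The CM of 13-MCB-44 gave the highest Pdgfb in both cell types, 87.2 CPM in CD26- and 27.6 CPM in CD26+ NFs. The same cultures had the highest summed epithelial markers of the CM libraries of their cell type, 5325 and 1781 CPM, and the part of epithelial RNA in this line difference was not tested. The Pdgfb effect did not pass without replicate 7 (FDR = 0.0524) or 16 (FDR = 0.0866), the cultures with this CM. For Pdgfd, the lines 13-MCB-17 and 10-SJK-221 gave the lowest levels in both cell types, 7.45 and 7.79 CPM in CD26- and 5.38 and 4.35 CPM in CD26+ NFs. Its FDR was above 0.05 in 8 of the 12 fits that left out 1 CM library, up to 0.0776. With DESeq2 4 genes passed (1374 of all genes) and without the filter on low counts 8 (2475 of 29724 genes tested). The number of genes with a line effect thus depends on the model.

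**Figure D4:**
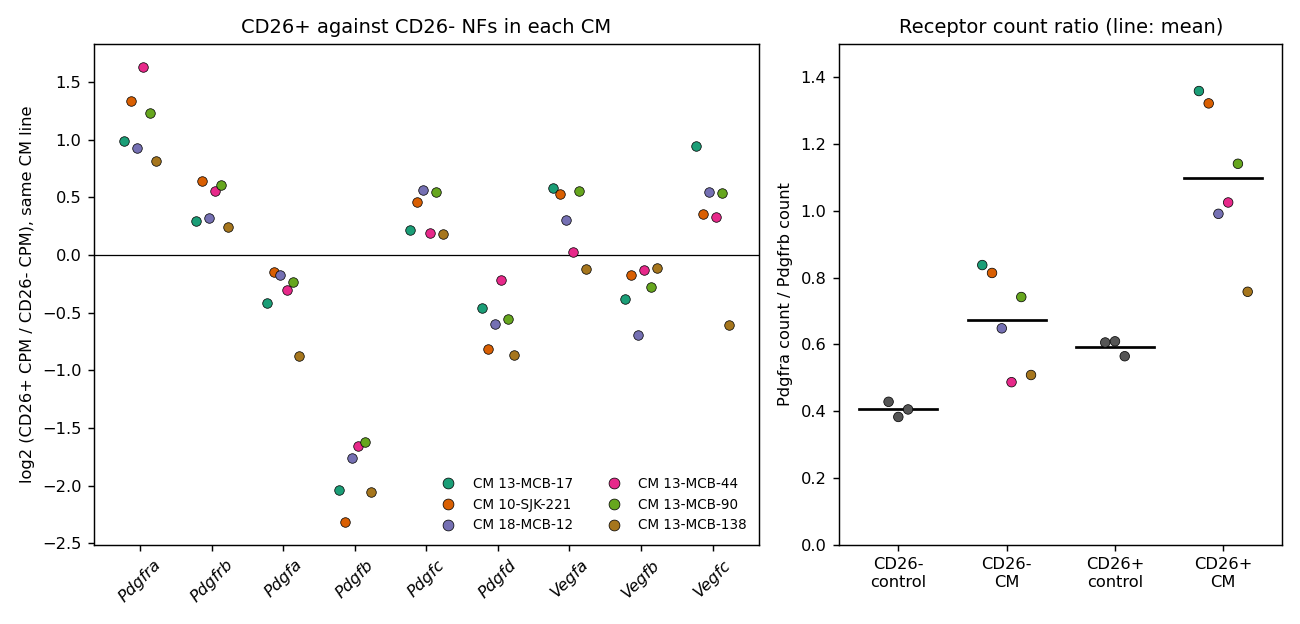
Left, log2 ratio of CD26+ to CD26- CPM (y axis) for each of the 9 genes (x axis) between the cultures given CM of the same tumour line, coloured by line. Right, count of Pdgfra divided by that of Pdgfrb (y axis) in each library of the 4 groups (x axis), with lines for group means. Points of 13-MCB-138 lie below 0 for Vegfa and Vegfc, and the mean ratio of receptor counts is 0.405 in CD26- control and 1.10 in CD26+ CM libraries.

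Levels can be compared between genes only after division by length, so CPM was divided by the kilobases of annotated exon. On this scale Pdgfrb was the higher receptor in every group, with means of 100.5 to 151.7 CPM per kb against 22.2 to 91.2 for Pdgfra. In CD26+ CM libraries Pdgfra was the higher before division by length (914 against 831 CPM). The order in that group thus rests on the pooled exon lengths, 10024 bases for Pdgfra and 5478 for Pdgfrb. The PDGF ligands were each below 20 CPM per kb on average. As shares of the summed per-kb level of the 4 PDGF ligands, Pdgfa, Pdgfb and Pdgfc were nearly equal in CD26- control libraries, at 30.3%, 31.8% and 31.5%, and these 3 did not differ beyond their spread. In CD26+ control libraries Pdgfc made up 56.3% ± 3.56 (SD, n = 3), Pdgfa 23.1% ± 2.57 and Pdgfb 12.6% ± 2.99. With tumour CM the share of Pdgfc was 43.5% ± 4.49 (n = 6) in CD26+ and 24.8% ± 1.95 (n = 6) in CD26- NFs. Pdgfa in CD26+ NFs was 37.3% ± 6.02 (n = 6) with CM.

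Of the per-kb level summed over Vegfa, Vegfb and Vegfc alone, without Vegfd and Pgf, Vegfa made up 84.4% to 91.9% in every library. Vegfc followed with group means of 6.93% to 8.18% and Vegfb with 3.06% to 6.12%. As a share of this sum of 3 genes, Vegfb was 6.12% ± 1.07 (SD, n = 3) in CD26+ control and 3.06% ± 0.574 (n = 6) in CD26+ CM libraries. Vegfb itself averaged 6.12 CPM in the first and 7.10 CPM in the second of these groups, and Vegfa, most of the sum, was 2.47-fold higher in the second. These shares are descriptions without a test. Annotated exons of all transcripts were pooled, so a gene with long exons that these cells do not use is placed too low.

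**Figure D5:**
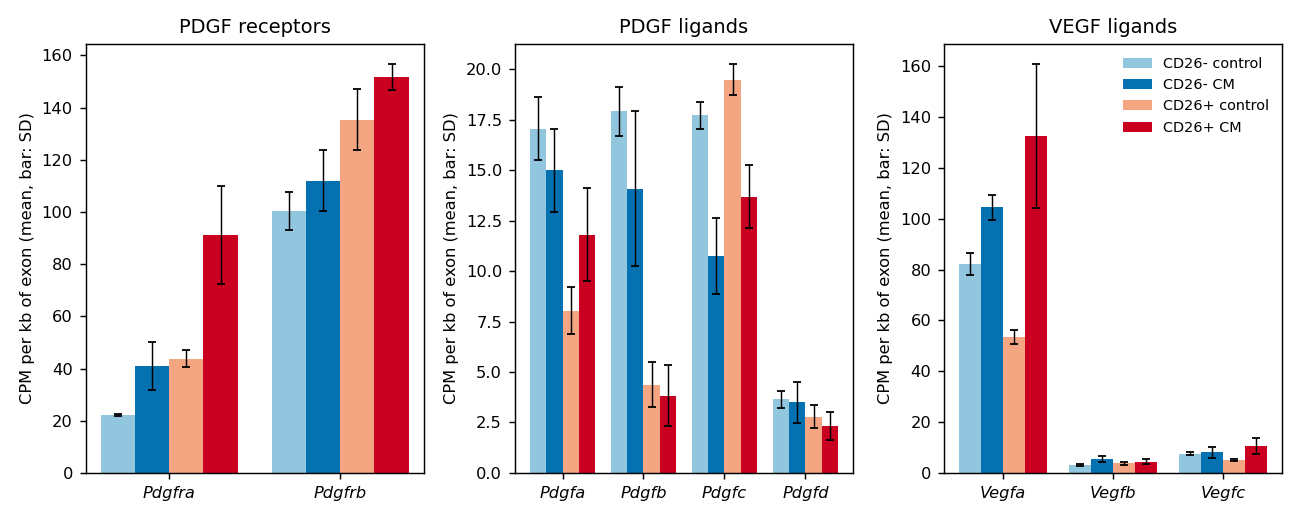
Mean expression per kilobase of exon (y axis, CPM per kb, bars from 0) of the receptors, the PDGF ligands and the VEGF ligands (panels) in the 4 groups (colours), with SD as error bars. Vegfa and Pdgfrb stand above 50 CPM per kb in all groups, while every PDGF ligand is below 20.

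The other receptors of the family came from a list of 6 genes. With tumour CM, 2 rose in CD26+ NFs, Flt1 and Nrp2, 1 fell (Nrp1), and in CD26- NFs only Nrp1 fell, against the shares of all genes given above (15.2% higher and 13.4% lower in CD26+, 7.28% lower in CD26- NFs). Flt1, which encodes VEGF receptor 1, averaged 1.67 CPM in CD26+ control and 9.16 CPM in CD26+ CM libraries (log2 fold change 2.46 ± 0.33 SE, edgeR FDR = 3.76e-05) and 4.51 and 4.91 CPM in the CD26- groups. Its response differed between the cell types by 2.35 ± 0.44 SE (FDR = 0.00572). Nrp2, a co-receptor for VEGF-C, rose from 92.3 to 145 CPM in CD26+ NFs (0.65 ± 0.12 SE, FDR = 0.000783), and its response also differed (0.83 ± 0.17 SE, FDR = 0.00809). Nrp1, a co-receptor for VEGF-A, fell from 223 to 158 CPM in CD26- NFs (-0.50 ± 0.125 SE, FDR = 0.0133) and from 224 to 168 CPM in CD26+ NFs (-0.41 ± 0.125 SE, FDR = 0.0204). Flt4, which encodes VEGF receptor 3, was lower in CD26+ than in CD26- NFs in control medium (3.56 against 13.9 CPM, log2 -1.96 ± 0.29 SE, FDR = 2.22e-05) and in tumour CM (4.93 against 19.7 CPM, -1.99 ± 0.19 SE, FDR = 1.42e-07). Of the 4 endothelial markers tested, 2 were lower in CD26+ NFs in the same comparisons, against 25.4% and 29.3% of all genes. The 2 markers are named after their values were seen. These were Cdh5 (log2 -2.17 in control medium and -2.14 in tumour CM) and Esam (-1.77 and -1.39). The remaining 2, Egfl7 (0.58 and 0.34) and Tek (0.30 and 0.15), had positive values and did not pass, and the sum of all 8 was no more than 11.8 CPM in any library. The epithelial markers had medians of -2.06 and -1.97 in these comparisons, and the part of either marker list in the difference of Flt4 was not tested. Vegfd, a further lymphatic growth factor, was higher in CD26+ NFs, with 62.1 against 16.1 CPM in control medium (1.94 ± 0.19 SE, FDR = 3.25e-07).

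Of 7 proteases that process the ligands, 3 fell with CM in CD26+ NFs and 0 of the 7 passed in CD26- NFs with edgeR or DESeq2, where 2 had an unadjusted p under 0.05 in edgeR, beside 13.4% and 7.28% of all genes that were lower. Plat, which encodes tissue plasminogen activator, the activator of PDGF-C, was higher in CD26+ NFs in control medium (314 against 141 CPM, log2 1.15 ± 0.15 SE, edgeR FDR = 7.04e-06) and in tumour CM (374 against 115 CPM, 1.71 ± 0.11 SE, FDR = 1.62e-09). Plau and St14, which encode urokinase and matriptase, proteases that can open PDGF-D, were lower in CD26+ NFs. St14 averaged 109 CPM in CD26- control and 21.9 CPM in CD26+ control libraries (-2.33 ± 0.30 SE, FDR = 5.28e-06), and Plau 325 and 184 CPM (-0.82 ± 0.14 SE, FDR = 7.36e-05). St14 is also an epithelial gene, and the epithelial marker sums given above were higher in the same libraries. Their part in this difference was not tested.

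Among 12 adaptor and effector genes of receptor tyrosine kinases, 8 rose with CM in CD26+ NFs and none fell with edgeR or DESeq2, while in CD26- NFs 1 rose and 1 fell (3 fell with DESeq2), against the 15.2% and 7.88% of all genes that were higher. The changes were small, with a median log2 fold change of 0.17 in CD26+ NFs. Pik3r1, a regulatory subunit of phosphoinositide 3-kinase, rose from 111 to 155 CPM (log2 0.49 ± 0.07 SE, edgeR FDR = 5.99e-05) and Src from 89.3 to 122 CPM (0.45 ± 0.07 SE, FDR = 0.000234).

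Of 22 genes of the early response to growth factors, 5 rose in CD26- and 6 in CD26+ NFs with CM, and none fell in either with edgeR or DESeq2, where 7.88% and 15.2% of all genes were higher. Spry4, a feedback inhibitor of receptor tyrosine kinase signalling, rose from 20.4 to 34.0 CPM in CD26- NFs (log2 0.73 ± 0.18 SE, edgeR FDR = 0.0105). Jun, a subunit of the transcription factor AP-1, rose from 50.5 to 94.9 CPM in CD26+ NFs (0.91 ± 0.18 SE, FDR = 0.00117). Between the cell types, 9 of the 22 were lower and 5 higher in CD26+ NFs in control medium, beside 25.4% of all genes lower and 25.0% higher. The largest decreases were those of Dusp5, a nuclear ERK phosphatase (70.8 against 17.2 CPM, -2.05 ± 0.26 SE, FDR = 5.91e-06), and Ier3 (212 against 63.2 CPM, -1.75 ± 0.21 SE, FDR = 3.56e-06). In this comparison 10 of 12 epithelial markers were also lower, with a median log2 fold change of -2.06, and their part in these differences was not tested.

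Hypoxia-responsive genes were listed because Vegfa belongs to that response. Of 14 genes, 8 rose and 2 fell with CM in CD26+ cultures, where 15.2% of all genes were higher and 13.4% lower. In CD26- cultures 4 of them rose and 1 fell, where 7.88% were higher and 7.28% lower. Adm, which encodes the vasodilator adrenomedullin, rose from 8.68 to 138 CPM in CD26+ NFs (log2 3.99 ± 0.45 SE, edgeR FDR = 6.79e-06) and from 19.2 to 95.1 CPM in CD26- NFs (2.31 ± 0.40 SE, FDR = 0.00142). Ndrg1 rose from 12.8 to 38.4 CPM in CD26+ NFs (1.59 ± 0.34 SE, FDR = 0.00217), and its response differed between the cell types (1.79 ± 0.45 SE, FDR = 0.0229). Hk2 and Pfkfb4, glycolytic genes of the same list, were the 2 that fell in CD26+ NFs (log2 -0.40 ± 0.10 SE, FDR = 0.00600, and -0.36 ± 0.125 SE, FDR = 0.0385).

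Of 8 oxygen-sensing genes, 3 rose and 1 fell in each cell type, beside 7.88% higher and 7.28% lower among all genes in CD26- and 15.2% and 13.4% in CD26+ NFs. Egln3, an oxygen-sensing hydroxylase that is itself induced by hypoxia, rose from 8.65 to 56.7 CPM in CD26+ NFs (log2 2.71 ± 0.28 SE, edgeR FDR = 3.32e-06) and from 12.7 to 33.4 CPM in CD26- NFs (1.39 ± 0.26 SE, FDR = 0.00259). Epas1, which encodes HIF-2 alpha, rose from 28.3 to 89.9 CPM in CD26+ NFs (1.67 ± 0.19 SE, FDR = 8.50e-06). Its response differed between the cell types by 1.15 ± 0.28 SE (FDR = 0.0192), and that of Egln3 by 1.33 ± 0.37 SE (FDR = 0.0368). Oxygen was not measured.

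Of 16 tested regulators of vessel growth outside the VEGF and PDGF families, 6 rose and 1 fell with CM in CD26+ cultures, where 15.2% of all genes were higher and 13.4% lower. In CD26- cultures 1 rose and 1 fell, where the shares were 7.88% and 7.28%. Angptl4 rose from 37.1 to 145.5 CPM in CD26+ NFs (log2 1.97 ± 0.39 SE, edgeR FDR = 0.00121) and from 37.6 to 88.5 CPM in CD26- NFs (1.24 ± 0.38 SE, FDR = 0.0366). Thbs1, which encodes the vessel growth inhibitor thrombospondin-1, rose from 4427 to 11290 CPM in CD26+ NFs (1.35 ± 0.15 SE, FDR = 4.74e-06). Angpt1, the agonist ligand of the Tek receptor, fell there from 12.7 to 5.10 CPM (-1.32 ± 0.24 SE, FDR = 0.000654).

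Genes with the most similar profile were found by the root-mean-square difference in log2 CPM, each gene centred on its mean over the 18 libraries, among 10611 genes. These distances are descriptions over libraries that share groups. Closest to Vegfa were S100a1 (0.11), Thbs1 (0.14) and Slc2a1 (0.14), where the SD of Vegfa itself was 0.49. Closest to Pdgfra were Fam162a (0.18), En1 (0.19) and Pdk1 (0.20), with an SD of 0.77 for Pdgfra. Sfn (0.11), Lamb3 (0.16) and Serinc2 (0.16) were closest to Pdgfb, whose SD was 1.08. Sfn and Lamb3 are known as genes of epithelial cells. The genes nearest to Pdgfrb were Desi2 (0.075), Shc1 (0.08) and Vps8 (0.08), with an SD of 0.26. For Pdgfc they included Adamts4 (0.15) and Sdc3 (0.15), and for Pdgfa they were Tmbim1, Ets2 and Iffo2 (each 0.16). The nearest gene to Pdgfd was H2bc4 (0.19, with an SD of 0.46 for Pdgfd), to Vegfb Gstp-ps (0.16, SD 0.36) and to Vegfc Plcxd2 (0.17, SD 0.46).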

How the data were processed

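Polyadenylated RNA of 18 cultures was sequenced as stranded Illumina single-end libraries. The authors deposited raw counts per Ensembl gene, without normalization. The submitters' processing notes name HISAT2 2.1.0, HTSeq and GRCm38, and the strand setting and the annotation release are not given in the sources used here. A row without a gene held no counts and was left out. Each column was matched to its sample by the sample number in its label. No batch is given in the labels.

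Genes were kept with filterByExpr by group and counts were scaled with TMM. edgeR 4.0.16 (R 4.3.3) fitted 1 quasi-likelihood model with the 4 groups as its terms to all tested genes, and FDR is the Benjamini-Hochberg adjusted p over these genes. Across genes, the biological coefficient of variation was 0.117. The effect of the tumour line was tested in the 12 CM libraries with cell type as a term. Exon lengths came from GENCODE M21. The fits were tested on simulated data. Libraries of a group differed by a chi-square of at least 3.22 per degree of freedom, so no library was a copy.

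The study used DESeq2 with a log2 limit of 2, and here DESeq2 1.42.0 and that limit were alternatives, beside RLE and upper-quartile scaling, other filters on low counts, fits of 2 groups, and fits without 1 library. In each of the 6 pairs of cultures that shared a CM, residuals from the group means correlated (r from 0.356 to 0.575). The CD26- culture with CM of 10-SJK-221 correlated slightly better with the other sort's 13-MCB-90 culture (0.390 against 0.388), and the other 5 best with their own line. The decision rests on every pair being over 0.1, and the labels give the shared line, so the line was also used as a replicate block. Genes other than the 9 were named by a rule: for each list and contrast, at most the 2 with the largest positive and the 2 with the largest negative log2 fold change among genes that passed and averaged 5 CPM or more in some group, and the 3 nearest genes of each member, of which 1 is not reported here. Outside this rule, markers of epithelial, endothelial, mural and immune cells (Krt18, Epcam, Cdh5, Esam, Egfl7, Tek, Kcnj8 and Ptprc) and the sort marker Dpp4 were named to show their levels, after their values were seen. The members and lists were chosen with earlier results of these data known.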

Additional observations from a re-analysis of the deposited data

Results flagged for a closer look

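Pdgfa in the CD26+ culture with CM of 13-MCB-138 (replicate 18) measured 23.4 CPM, while the nearest of the other 5 CD26+ CM libraries measured 36.6 CPM. The gap was 0.648 of the whole range of the group, above the limit of Dixon's test for 6 values. It was 1 of 18 groups of 6 examined, and chance alone gives about 1 such value in 20 groups. The same culture had the lowest Pdgfra, Vegfa and Vegfc of the CD26+ CM libraries (613, 396 and 17.3 CPM), its summed epithelial markers were 880 CPM and its summed fibroblast markers 63450 CPM, the highest of its group. The part of these differences in the low Pdgfa value was not tested.

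The CM response differed between the cell types for Vegfa, by 0.958 on the log2 scale (edgeR FDR = 0.00656), and its FDR stayed between 0.000106 and 0.0363 under all alternatives run, those without 1 library included. For Pdgfa the difference was 0.743 (edgeR FDR = 0.0433). Its FDR reached 0.149 without control replicate 11 and was 0.00682 with the tumour line as a block.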

How the results depend on the processing

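No call turned its direction in any of the 1242 recomputed single-gene values, of which 1184 kept their side of the FDR threshold, 31 lost it and 27 gained it. With the limit of the study, a log2 fold change beyond 2, 0 of the 9 genes were called in either CM comparison, in tumour CM between the cell types or for the difference in CM effect, and 1 (Pdgfb) in control medium. With a limit of 1, 0 were called in CD26- NFs, 3 in CD26+ NFs (Vegfa, Pdgfra and Vegfc), 2 between the cell types in control medium (Pdgfa and Pdgfb), 2 in tumour CM (Pdgfra and Pdgfb) and 0 for the difference. These limits only remove calls, by construction. The shares of all genes past these limits are not given here, so the counts at these limits are descriptions only. For the difference in CM effect, upper-quartile scaling left 1 gene and leaving out 1 library left 1 to 3. With the line as a replicate block, 4 passed for the difference (1075 of all genes without and 2516 with the block), and 9 of 9 between the cell types in tumour CM (8360 of 14273 genes without and 8999 with the block). The block was fitted for these 2 comparisons and changed the call of Vegfb and Vegfc in both, and of no other of the 9 genes. For the line effect, DESeq2 gave 4 genes (1374 of all genes) and no filter on low counts 8 (2475 of 29724 genes tested, against 876 of 13344 with the filter). Leaving out 1 library gave 1 to 6, with 6 without replicate 9 and 4 without replicate 18. The cause was not tested. DESeq2 for the other 5 comparisons, fits with 2 groups, RLE scaling and a filter at 5 CPM kept the counts of calls within 1.5 times. Depth limits the precision of the genes with few counts, such as Vegfb with 57 to 144 per library.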
